A study of Mus musculus with 8 samples.

Results

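Basophil and mast cell genes were measured in RNA from sorted bone marrow progenitors of Hdc-GFP mice. The 10 genes were Prss34, Mcpt8, Cpa3, Ms4a2, Fcer1a, Cd200r3, Cma1, Tpsb2, Mcpt4 and Gzmb. They were matched by gene symbol in the count table, and all 10 were found among its 23284 genes. The mice were on a C57BL/6 background and carried a green fluorescent protein (GFP) reporter of Hdc, which encodes the histamine-forming enzyme histidine decarboxylase. Cells of the LSK fraction, which lack lineage markers and carry Sca-1 and c-Kit, were sorted into Hdc-GFPhi (4 libraries) and Hdc-GFPlo (4 libraries), with 2000 cells per library. All cells of both groups came from reporter mice, were sorted on the same surface markers and were separated by GFP level. The labels name no treatment. The labels do not state age, sex, the number of animals or any pooling of animals. The cell type label of Hdc-GFPhi replicate 4 says GFP+ where the others say GFPhi.

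Basophils and mast cells are granulocytes that carry the high-affinity receptor for IgE on their surface. When antigen crosslinks that receptor, they release histamine and granule proteases such as tryptases, chymases and carboxypeptidase A. Both lineages develop from bone marrow progenitors under the control of GATA factors, and both express Hdc when mature.

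Library totals ranged from 16726179 to 23051277 counts, and a count of 0 in a library allows up to 3 counts, or 0.133 to 0.178 CPM (counts relative to library size, scaled by the TMM method). This limit covers counting error only. The sort markers Kit, Cd34 and Flt3 had at least 13503 counts in every library, and the T cell gene Cd8a had 0 in all of them. The neutrophil granule gene Ltf had 7590 to 14329 counts, so transcripts of a gene that marks lineage-positive cells were counted in all 8 libraries. As these were bulk samples, fewer cells of a type and less RNA per cell cannot be told apart.

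The promoters of the 3 best covered genes are shown because these are the genes the test could reach; Mcpt8 and Cpa3 were detected in all 8 libraries and Prss34 in 5. Each is the 250 bases before the RefSeq start site (build GRCm38.p6, while the counts were made on mm9), with the GATA core motif GATAA, searched on both strands, in capitals. The Prss34 window is chr17:25298144-25298393 on the + strand, the Cpa3 window is chr3:20242182-20242431 on the - strand and the Mcpt8 window is chr14:56085198-56085447 on the - strand.
Prss34: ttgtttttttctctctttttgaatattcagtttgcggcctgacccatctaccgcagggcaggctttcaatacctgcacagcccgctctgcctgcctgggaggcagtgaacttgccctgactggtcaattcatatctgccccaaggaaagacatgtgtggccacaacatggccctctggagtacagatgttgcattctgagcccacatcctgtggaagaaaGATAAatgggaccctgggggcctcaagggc
Cpa3: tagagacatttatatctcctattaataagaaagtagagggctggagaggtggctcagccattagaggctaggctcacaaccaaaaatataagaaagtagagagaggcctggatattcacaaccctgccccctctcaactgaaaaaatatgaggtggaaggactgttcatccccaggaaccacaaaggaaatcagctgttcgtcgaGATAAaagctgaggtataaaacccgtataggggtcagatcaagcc
Mcpt8: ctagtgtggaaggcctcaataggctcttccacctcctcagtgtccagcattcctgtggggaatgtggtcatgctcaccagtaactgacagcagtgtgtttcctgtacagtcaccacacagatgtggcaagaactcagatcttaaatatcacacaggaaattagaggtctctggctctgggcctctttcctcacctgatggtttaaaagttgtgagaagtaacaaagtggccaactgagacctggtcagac
The motif begins 30 bases before the start in Prss34 and 45 bases before it in Cpa3. The Mcpt8 window does not hold these letters. Of the 9 genes matched in the RefSeq promoter table, 7 held the motif in this window, against 22.6% of all 32851 promoters of that length. A match is a description of the sequence and not evidence of binding.

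No gene of the set passed the test between the fractions. Only Prss34, Mcpt8 and Cpa3 had enough counts for the fit over all 13300 tested genes. None of these 3 passed edgeR's quasi-likelihood test at an adjusted p of 0.05, where 0.947% of all tested genes did. None of the 3 had an unadjusted p under 0.05, against 10.9% of all tested genes, and DESeq2 and limma voom, which called 3.04% and 2.09% of the genes they tested, called none of the 3. In none of the 10 genes did the fractions separate without overlap, while 6.92% of tested genes did. Libraries of the same fraction differed widely in several of these genes, as the values by library show.

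**Figure D1:**
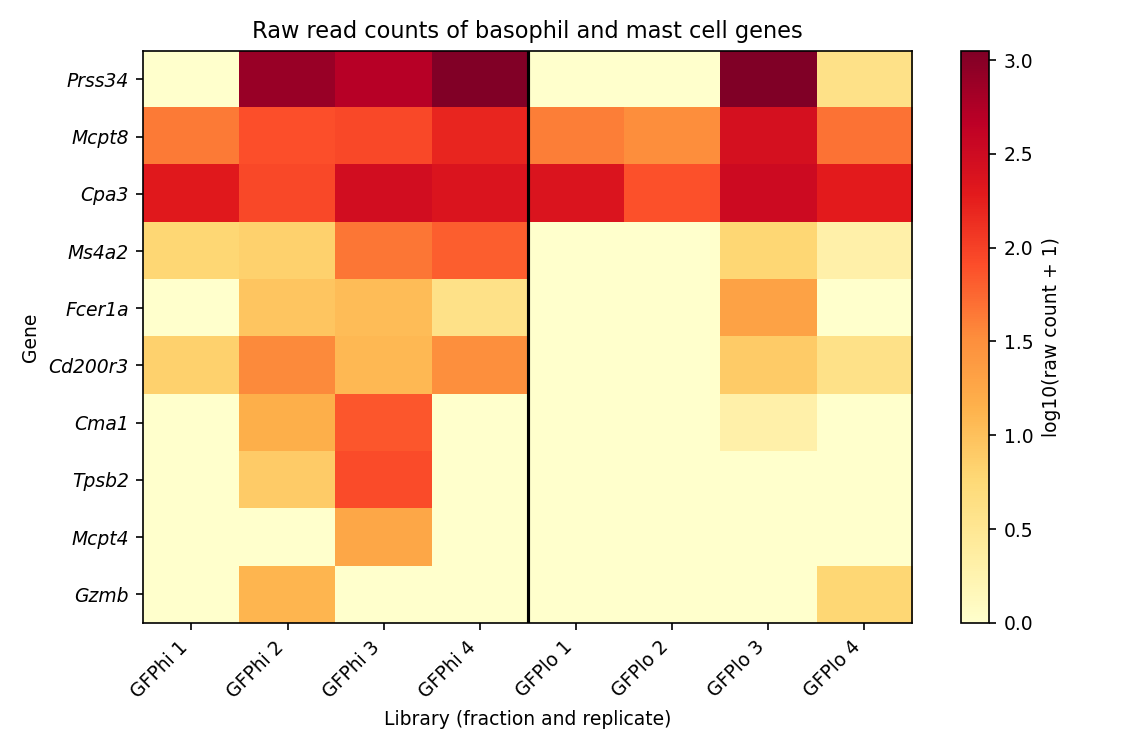
Raw read counts of the 10 genes (rows) in the 8 libraries (columns, with a line between the fractions), shaded by log10 of the count plus 1. Mcpt8 and Cpa3 are above 0 in all 8 libraries, Prss34 is at 0 in 3 libraries and at 494 to 1120 in 4, and Mcpt4 is above 0 in Hdc-GFPhi replicate 3 only.

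Prss34 encodes a tryptase-like serine protease of basophil granules. In Hdc-GFPhi replicates 1 to 4 it had 0, 777, 494 and 1069 counts, which correspond to 0, 36.2, 21.99 and 47.6 CPM. In Hdc-GFPlo replicates 1 to 4 it had 0, 0, 1120 and 3 counts, or 0, 0, 62.0 and 0.152 CPM. Prss34 was thus high in 3 Hdc-GFPhi libraries and 1 Hdc-GFPlo library and at 0 to 3 counts in the other 4, and the fractions overlapped over their whole range. Mean levels were 26.5 ± 20.5 CPM among Hdc-GFPhi libraries and 15.55 ± 30.99 CPM among Hdc-GFPlo libraries (SD, n = 4 each). The estimated log2 fold change, Hdc-GFPhi minus Hdc-GFPlo, was 0.77 ± 2.07 (SE; 95% interval -4.23 to 5.78; edgeR adjusted p = 0.941). Hdc-GFPlo replicate 3 held 99.7% of the Hdc-GFPlo counts. Without that library the log2 fold change was 8.88 (edgeR adjusted p = 0.274), and with the replicate number as a block it was 3.85 (edgeR adjusted p = 0.780), neither past the threshold. The biological coefficient of variation of Prss34 was 288%, above that of 99.98% of tested genes, where the common value was 19.9%.

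Such a swing between libraries was rare in the table. Of 23284 genes, 7 had 0 counts in at least 1 library and at least 500 in another, and Prss34 was the only one of the 10 genes among them. The others were the eosinophil peroxidase gene Epx, the lymphoid factor Lef1 and the pancreatic enzyme genes Cel, Cela2a, Ctrb1 and Pnlip. These 6 genes were named after their values were seen. With at least 50 counts in another library instead of 500, 67 genes met the rule, or 0.288% of the 23284. Of the 10 genes, 4 were among those 67, namely Prss34, Ms4a2, Cma1 and Tpsb2. The pancreatic genes were highest in Hdc-GFPhi replicate 4 (512 to 1399 counts), which also held 1069 Prss34 counts. In Hdc-GFPlo replicate 3, the library with the most Prss34, they had 23 to 60 counts. The pancreatic genes had 0 to 6 counts in replicates 1 and 2 of both fractions and at least 23 in replicates 3 and 4 of both. Their part in the Prss34 values was not tested.

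Mcpt8 encodes a basophil granule protease of the granzyme-like chymase locus. It had 43, 79, 88 and 158 counts in Hdc-GFPhi replicates 1 to 4 and 40, 31, 266 and 47 in Hdc-GFPlo replicates 1 to 4. In CPM these were 1.92, 3.69, 3.92 and 7.04 against 1.77, 1.84, 14.7 and 2.38. Mcpt8 was highest in the same 4 libraries that were high for Prss34, and Hdc-GFPlo replicate 3 again led. The means were 4.14 ± 2.13 and 5.18 ± 6.37 CPM (SD, n = 4 each), for a log2 fold change of -0.32 ± 0.64 (SE; 95% interval -1.71 to 1.08; edgeR adjusted p = 0.923). The direction depended on Hdc-GFPlo replicate 3: without it the log2 fold change was 1.06 (edgeR adjusted p = 0.335). With the replicate number as a block it was 0.18 (edgeR adjusted p = 0.928).

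Mcpt8 and Prss34 differed in the libraries where Prss34 was at 0 to 3 counts. In Hdc-GFPhi replicate 1 and Hdc-GFPlo replicates 1 and 2, Prss34 had 0 counts while Mcpt8 had 43, 40 and 31. Hdc-GFPlo replicate 4 had 3 Prss34 counts beside 47 of Mcpt8. In the 4 libraries high for Prss34, its count was 9.84, 5.61, 6.77 and 4.21 times that of Mcpt8 (Hdc-GFPhi replicates 2, 3 and 4 and Hdc-GFPlo replicate 3). A low level of Mcpt8 was therefore measured in all 8 libraries, with Prss34 present beside it in some of them.

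**Figure D2:**
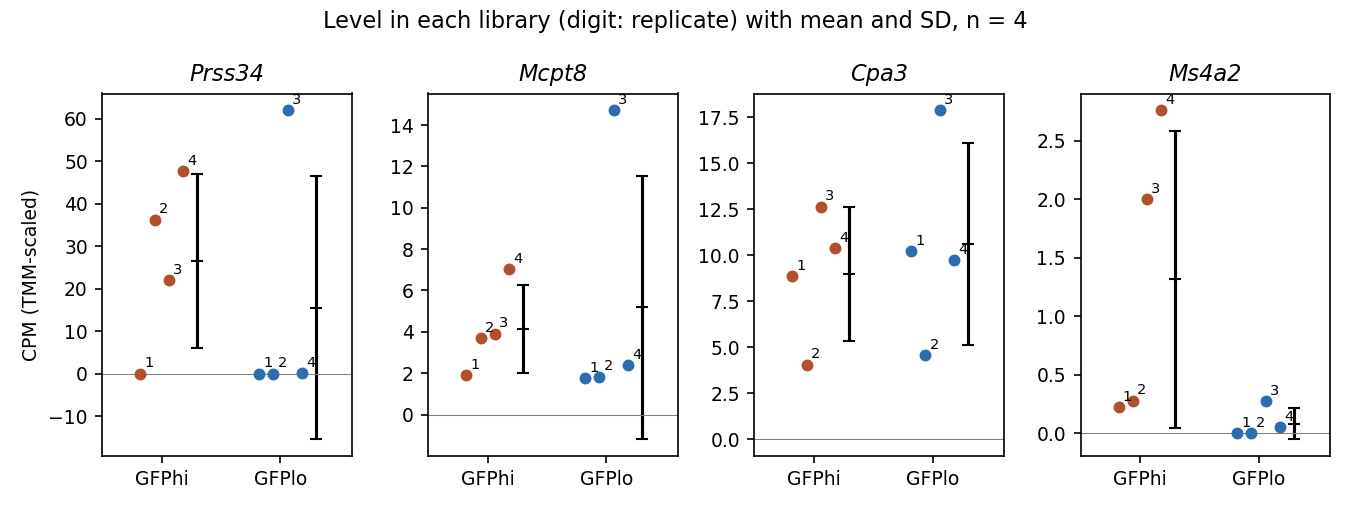
CPM of Prss34, Mcpt8, Cpa3 and Ms4a2 in each library (points, with the replicate number), with the mean and SD of 4 libraries (bars) for Hdc-GFPhi and Hdc-GFPlo. Hdc-GFPlo replicate 3 lies far above the other Hdc-GFPlo libraries for Prss34 (62.0 CPM) and Mcpt8 (14.7 CPM).

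Cpa3 encodes carboxypeptidase A, a granule exopeptidase of mast cells that is also transcribed in basophils and early progenitors. It had 199, 87, 284 and 233 counts in Hdc-GFPhi replicates 1 to 4 and 231, 77, 323 and 192 in Hdc-GFPlo replicates 1 to 4. The means were 8.99 ± 3.63 and 10.6 ± 5.49 CPM (SD, n = 4 each), with a log2 fold change of -0.24 ± 0.39 and a 95% interval of -1.07 to 0.60 (edgeR adjusted p = 0.897). The interval leaves room for a level between 0.475 and 1.51 times that of Hdc-GFPlo. The value was 0.15 without Hdc-GFPlo replicate 3 (edgeR adjusted p = 0.930), so that its sign also turned on that library.

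The lowest and the highest replicate number for Cpa3 were the same in both fractions. Replicate 2 was lowest in both fractions (4.06 and 4.57 CPM) and replicate 3 was highest in both (12.6 and 17.9 CPM). Within the same number the Hdc-GFPhi level was 0.868, 0.888, 0.707 and 1.07 times the Hdc-GFPlo level for replicates 1 to 4. The same ratios for Mcpt8 were 1.08, 2.002, 0.266 and 2.95. For Prss34, both libraries of replicate 1 were at 0, and the pairs of replicates 2 and 4 were high in Hdc-GFPhi only. In the replicate 3 pair Hdc-GFPlo was higher, at 62.0 against 21.99 CPM.

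Genes whose log2 CPM followed Cpa3 most closely over the 8 libraries were Slmo2 (Pearson's r 0.99), A030009H04Rik (0.99) and Zfp326 (0.98), out of 11512 genes with a mean count of at least 50. These values rank likeness over libraries that share replicate numbers and were not tested. None of these 3 is a basophil or mast cell gene of the lists used here.

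Per length the order of levels depended on the library. In Hdc-GFPhi replicate 4, Prss34 was at 39.1 CPM per kilobase of its longest protein-coding transcript, Mcpt8 at 8.42 and Cpa3 at 7.17. In Hdc-GFPhi replicate 1, Cpa3 was at 6.12 and Mcpt8 at 2.29 on the same scale, with Prss34 at 0. Mean levels over Hdc-GFPhi were 21.7 for Prss34, 6.21 for Cpa3 and 4.95 for Mcpt8. Each of the other 7 genes had a mean below 1 CPM per kilobase in both fractions. Mcpt8 and Cpa3 overlapped across libraries on this scale.

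The alpha and beta chain genes of the IgE receptor were sparse. Ms4a2, the beta chain that amplifies signals of the receptor, had 5, 6, 45 and 62 counts in Hdc-GFPhi replicates 1 to 4 and 0, 0, 5 and 1 in Hdc-GFPlo. The group sums were 118 and 6 counts, and the lowest Hdc-GFPhi count equalled the highest Hdc-GFPlo count. Fcer1a, the alpha chain that binds IgE, had 0, 8, 10 and 3 counts in Hdc-GFPhi and 0, 0, 19 and 0 in Hdc-GFPlo, with nearly equal sums of 21 and 19. Fcer1a was detected in only those 4 libraries that were high for Prss34. Cd200r3, an activating receptor of basophils and mast cells, had 6, 34, 11 and 30 counts in Hdc-GFPhi and 0, 0, 7 and 3 in Hdc-GFPlo, with sums of 81 and 10.

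The receptor transcripts did not keep a fixed proportion to Prss34. Hdc-GFPlo replicate 3 had 224 Prss34 counts for each Ms4a2 count, Hdc-GFPhi replicate 2 had 129.5, and Hdc-GFPhi replicates 3 and 4 had 11.0 and 17.2. Ms4a2 and Cd200r3 were also above 0 in Hdc-GFPhi replicate 1, where Prss34 and Fcer1a were at 0.

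Unlike Cpa3, which was counted in all 8 libraries, the granule genes Cma1, Tpsb2 and Mcpt4 had most of their counts in Hdc-GFPhi replicate 3. Cma1, a chymase, had 0, 14, 70 and 0 counts in Hdc-GFPhi replicates 1 to 4 and 1 count in Hdc-GFPlo, in replicate 3. Tpsb2, a tryptase, had 0, 7, 84 and 0 counts in Hdc-GFPhi and none in Hdc-GFPlo. Mcpt4, a chymase of connective tissue mast cells, had 17 counts in Hdc-GFPhi replicate 3 and none elsewhere. Hdc-GFPhi replicate 3 thus held 83.3% of the Hdc-GFPhi counts of Cma1, 92.3% of those of Tpsb2 and all of those of Mcpt4. Hdc-GFPhi replicate 4 had the most Prss34 of its fraction and none of these 3 transcripts.

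Gzmb, a serine protease of cytotoxic granules from the same locus as the chymases, had 12 counts in Hdc-GFPhi replicate 2, 5 in Hdc-GFPlo replicate 4 and 0 in the other 6 libraries. The granzyme Gzma was also above 0 in those 2 libraries, with 15 and 6 counts, and reached 43 counts in Hdc-GFPlo replicate 3, where Gzmb was at 0. Gzmb was thus at 0 in 3 of the 4 libraries high for Prss34 and in the library with the most Cma1, Tpsb2 and Mcpt4.

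The 7 genes too low for the fit over 13300 genes were read from a fit with no filter beyond 1 count. None of the 7 passed there, the smallest edgeR adjusted p being 0.136 for Ms4a2, where 0.843% of 17433 genes passed. Of the 7, 5 had an edgeR unadjusted p under 0.05 there, all higher in Hdc-GFPhi. These were Ms4a2 (0.00242), Cma1 (0.00638), Cd200r3 (0.014), Tpsb2 (0.023) and Mcpt4 (0.0417). The share of all genes under 0.05 is at hand for the fit over 13300 genes only, at 10.9%. That fit held none of the 7, so the 5 cannot be set against its share. Most counts of Cma1, Tpsb2 and Mcpt4 came from Hdc-GFPhi replicate 3. Tpsb2 and Mcpt4 entered the fit with no filter through Hdc-GFPhi counts alone, so they could only come out higher in Hdc-GFPhi. Over the set as a whole, the number of its genes detected was 4, 9, 9 and 6 in Hdc-GFPhi replicates 1 to 4 and 2, 2, 7 and 6 in Hdc-GFPlo, ranges that overlapped.

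**Figure D3:**
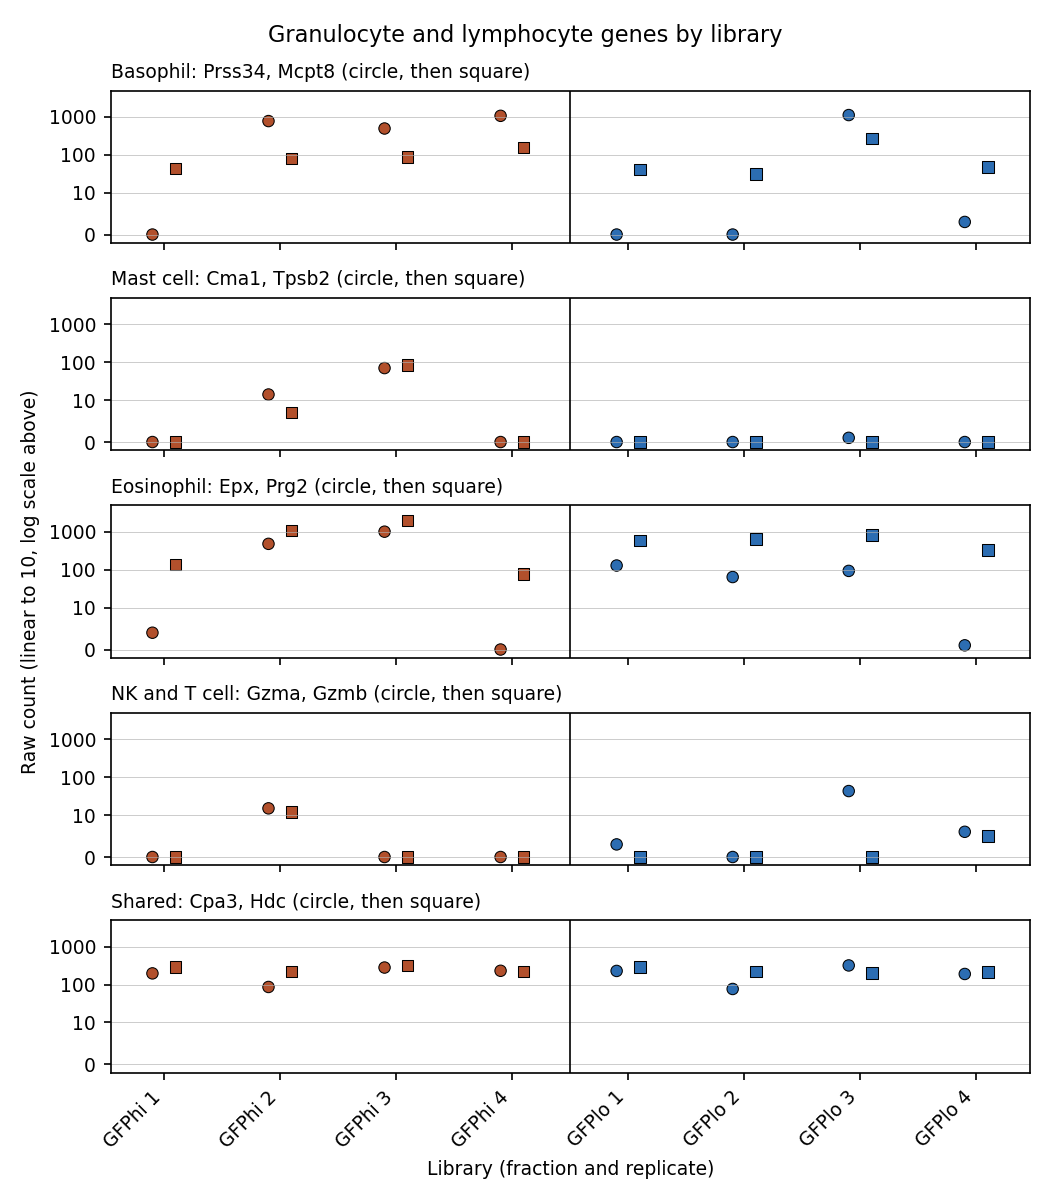
Raw counts of pairs of genes (circles for the first named, squares for the second) in each library, on a scale that is linear to 10 and logarithmic above. Prss34 is high in Hdc-GFPhi replicates 2, 3 and 4 and Hdc-GFPlo replicate 3, Cma1 and Tpsb2 are high in Hdc-GFPhi replicate 3, and Cpa3 and Hdc are above 0 in every library.

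The summed level of eosinophil genes was highest in 3 of the 4 libraries high for Prss34 and lowest in the other one, Hdc-GFPhi replicate 4. Epx had 4, 483, 1014 and 0 counts in Hdc-GFPhi replicates 1 to 4 and 129, 64, 93 and 1 in Hdc-GFPlo. Prg2, the eosinophil major basic protein gene, had 139, 1074, 2002 and 77 counts against 587, 657, 827 and 332. In Hdc-GFPhi replicate 3, Prg2 and Epx made up 89.1 and 45.1 CPM of a sum of 155 CPM. Other genes of the sum did not follow its order. Ear1 had 63, 134, 67 and 66 counts against 165, 161, 190 and 54. Siglec5 had 169, 78, 128 and 127 against 230, 108, 113 and 85. Hdc-GFPhi replicate 4 combined 1069 counts of Prss34 with 0 of Epx, and Hdc-GFPlo replicates 1 and 2 had Epx with no Prss34. The library with the most Epx, Hdc-GFPhi replicate 3, also had the most counts of Cma1, Tpsb2 and Mcpt4. The summed level of 10 eosinophil genes ranged from 17.4 to 155 CPM in Hdc-GFPhi and from 29.9 to 76.6 CPM in Hdc-GFPlo, and none of the 8 tested was called by edgeR (1 had an unadjusted p under 0.05, against 10.9% of all tested genes). The summed level of the 10 basophil and mast cell genes ranged from 11.3 to 69.3 CPM and from 6.41 to 96.4 CPM.

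Transcripts of genes that mark other lineages were also counted. The 11 measured neutrophil genes summed to 2084 to 2730 CPM in Hdc-GFPhi and 2516 to 3352 CPM in Hdc-GFPlo, with none at 0 in any library. By edgeR none of the 11 was called, and 3 had an unadjusted p under 0.05, all lower in Hdc-GFPhi, against 10.9% of all tested genes. The 15 NK and T cell genes summed to 143 to 186 and 164 to 230.5 CPM, of which Nkg7 made up most, while Cd3d was above 0 in all 8 libraries (1 to 13 counts) and Cd3e was at 0 in 6 of them. Of the 4 NK and T cell genes tested by edgeR none was called, and only Klrd1 had an unadjusted p under 0.05. Klrd1 had 10, 6, 3 and 0 counts in Hdc-GFPhi and 41, 18, 37 and 25 in Hdc-GFPlo, without overlap. The part of these other lineages in the values of the basophil and mast cell genes was not tested. Hdc itself, at 204 to 326 counts per library, averaged 12.0 ± 2.12 and 12.1 ± 1.21 CPM in the high and low fractions. In the 4 libraries high for Prss34 it had 225, 326, 226 and 204 counts, and in the other 4 it had 294, 290, 226 and 215, so these ranges overlapped.

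**Figure D4:**
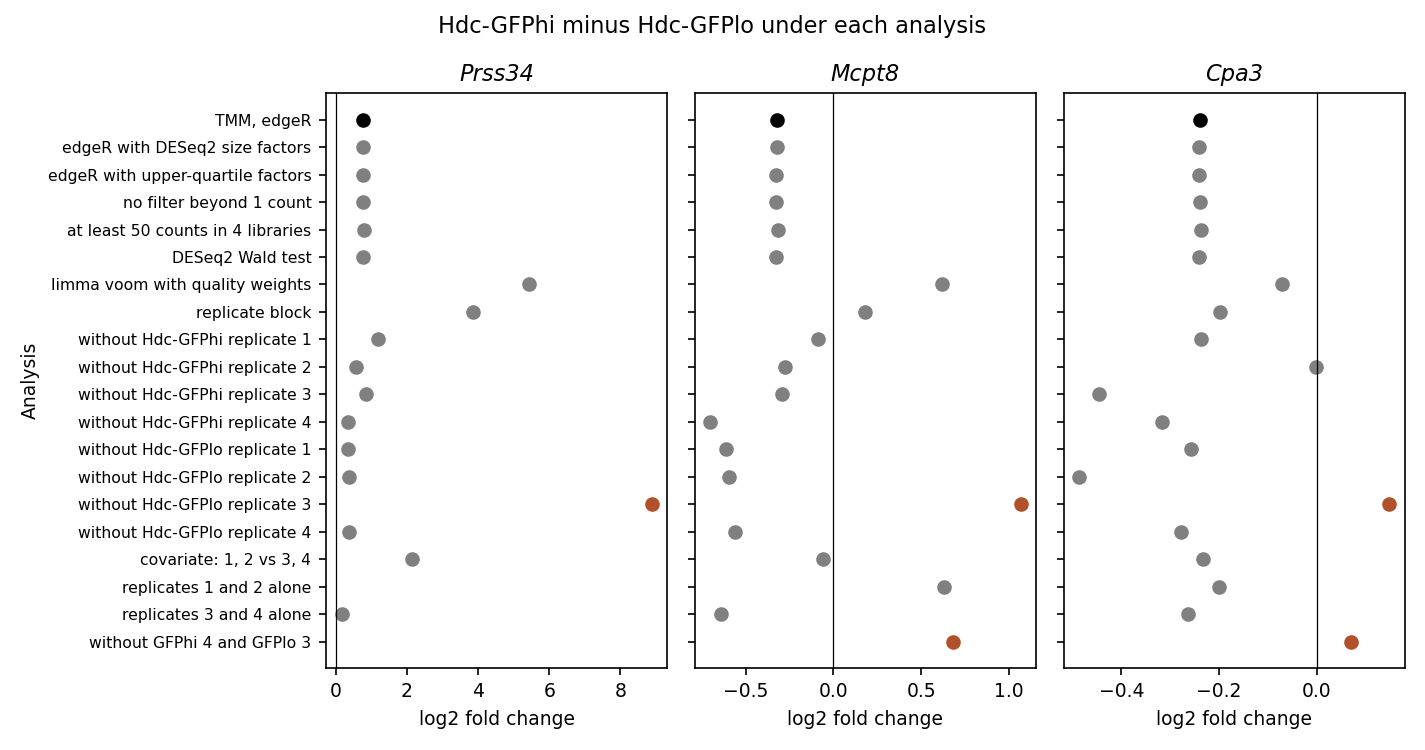
Log2 fold change of Prss34, Mcpt8 and Cpa3 (Hdc-GFPhi minus Hdc-GFPlo, horizontal axes of different range) under each analysis, with analyses that leave out Hdc-GFPlo replicate 3 in colour. Prss34 moves from 0.77 to 8.88 without that library, and Mcpt8 and Cpa3 change sign to 1.06 and 0.15.

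Further genes of basophil and mast cell development and function were read from 6 lists by role. Of 115 listed genes, 113 were in the table and 91 were tested. Of these, 1 was called higher and 3 lower by edgeR, against 0.241% and 0.707% of all tested genes. With the replicate number as a block, 7 were called, of which Gata2 was higher and Cd69 and Hes1 lower in addition to the 4, while 1.68% of all tested genes were called in that fit. The median log2 fold change was -0.01 over the 91 genes, and that of all tested genes was 0 to 2 decimals. Of the 91 genes, 28 had an edgeR unadjusted p under 0.05 (10 higher and 18 lower), against 10.9% of all tested genes. The fractions separated without overlap in 7 genes that were higher and 11 that were lower, against 6.92% of tested genes in either direction. The lists were chosen with earlier results of these data known.

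Among other granule proteases, 13 of 17 genes had no counts in any library, as did 5851 of all 23284 genes in the table. The 13 included the tryptase genes Tpsab1 and Tpsg1 and the mucosal mast cell proteases Mcpt1 and Mcpt2. Cma2 had 1 count, in Hdc-GFPhi replicate 3. Ctsg, which encodes cathepsin G of neutrophils and mast cells, averaged 5.84 ± 1.05 CPM in Hdc-GFPhi and 10.8 ± 1.06 in Hdc-GFPlo, without overlap, with an edgeR adjusted p of 0.0596. DESeq2 and voom called Ctsg (adjusted p = 0.00112 and 0.0353).

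Signalling genes of the IgE receptor were well expressed, and 1 of 23 was called by edgeR, against 0.947% of all tested genes. Of the 23, 7 had an edgeR unadjusted p under 0.05, all lower in Hdc-GFPhi, against 10.9% of all tested genes. Lat2, an adaptor that the receptor's kinases phosphorylate, fell in Hdc-GFPhi from 109 ± 7.11 to 71.8 ± 5.46 CPM (log2 fold change -0.60 ± 0.10, edgeR adjusted p = 0.0143). Leaving out Hdc-GFPhi replicate 3 (edgeR adjusted p = 0.058) or Hdc-GFPlo replicate 1 (0.0615) ended the call. The protein kinase C gene Prkcb did not pass (log2 fold change -0.49, edgeR adjusted p = 0.378). Fcer1g, the signalling chain shared with other Fc receptors, had 454 to 644 counts per library, and the fractions overlapped (edgeR adjusted p = 0.426).

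Of 17 tested factors of the lineage, 9 had an edgeR unadjusted p under 0.05 (5 higher and 4 lower), against 10.9% of all tested genes. By edgeR 2 of the 17 were called, against 0.947% of all tested genes. These were Irf8 and Ikzf1, lower in Hdc-GFPhi at log2 fold changes of -1.29 ± 0.18 and -0.46 ± 0.09 (edgeR adjusted p = 0.00507 and 0.0311). Ikzf1, the Ikaros gene, lost its call in each of the fits without 1 library other than that without Hdc-GFPlo replicate 3 (edgeR adjusted p of up to 0.149). Markers of B cells, plasma cells and plasmacytoid dendritic cells moved with Irf8, Ikzf1 and Lat2. The 7 plasma cell and B cell markers summed to 37.8 to 74.0 CPM in Hdc-GFPhi and 219 to 308 CPM in Hdc-GFPlo. Of that sum, Igj made up 0.796 CPM in Hdc-GFPlo replicate 1 and 95.3 to 183.5 CPM in Hdc-GFPlo replicates 2 to 4. Of the 7, 2 were called lower by edgeR, against 0.707% of all tested genes. The 7 plasmacytoid dendritic cell markers summed to 280.1 to 305 and 379 to 491 CPM, of which Tcf4, which was not called, made up most. Of the 7, 4 were called lower, against that same 0.707%, and Irf8 is itself one of those 4. Of these 14 markers, none was at 0 in 7 of the libraries, and 1 of each list was at 0 in Hdc-GFPhi replicate 4. Their part in the lower values of Irf8, Ikzf1 and Lat2 was not tested. The 11 megakaryocyte and erythroid markers summed to 170.5 to 194 CPM in Hdc-GFPhi and 135 to 155 CPM in Hdc-GFPlo, with none of 9 tested called by edgeR (4 with an unadjusted p under 0.05, against that same 10.9%). Gata2, a factor that basophils, mast cells and stem cells all need, averaged 185 ± 25.3 against 126 ± 16.0 CPM without overlap (edgeR adjusted p = 0.0593, and 0.0224 with the replicate number as a block). Hes1, a Notch target, had a log2 fold change of -1.53 ± 0.36 (edgeR adjusted p = 0.0748, and 0.0394 with that block). DESeq2 and voom called Gata2 (adjusted p = 0.00258 and 0.0394). DESeq2 called Hes1 (adjusted p = 0.00384) and voom did not (0.107). None of 13 tested growth factor and cytokine receptors was called by edgeR, none had an unadjusted p under 0.05, and DESeq2 and voom called none. They included Crlf2, a chain of the TSLP receptor (log2 fold change 0.30), Kit (0.29), Il3ra, the IL-3 receptor chain (0.22), and Il18r1 (-0.29).

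Of the 17 tested genes of mediator synthesis and storage, 5 had an edgeR unadjusted p under 0.05 (3 higher and 2 lower), against 10.9% of all tested genes. Only Ptgs1 was called by edgeR, against 0.947% of all tested genes. This cyclooxygenase gene of prostaglandin synthesis rose in Hdc-GFPhi to 134 ± 11.7 from 86.2 ± 11.8 CPM (log2 fold change 0.63 ± 0.12, edgeR adjusted p = 0.0242). Leaving out any one of Hdc-GFPhi replicates 2, 3 and 4 and Hdc-GFPlo replicates 1 and 4 ended the call (edgeR adjusted p of up to 0.103), while the sign stayed positive. The cytokine gene Il4 had 39, 37, 66 and 60 counts in Hdc-GFPhi and 18, 13, 27 and 30 in Hdc-GFPlo, without overlap (log2 fold change 0.98 ± 0.39, edgeR adjusted p = 0.359). Hpgds, the prostaglandin D synthase of mast cells, was at 9.35 ± 0.42 against 13.1 ± 2.07 CPM (edgeR adjusted p = 0.269), and Slc18a2, the vesicular monoamine transporter, had an edgeR adjusted p of 0.249.

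Surface and degranulation genes held no call among 18 tested by edgeR (5 with an unadjusted p under 0.05, against 10.9% of all tested genes). Cd63, a granule membrane protein that marks degranulated basophils, had a log2 fold change of 0.43 ± 0.15 (edgeR adjusted p = 0.258, and 0.0269 without Hdc-GFPlo replicate 3). Voom called Cd63 (adjusted p = 0.0198). Cd69, an activation marker, was at -0.82 ± 0.21 (edgeR adjusted p = 0.100, and 0.00506 with the replicate number as a block). DESeq2 called Cd69 and Cd244 (adjusted p = 0.00738 and 0.00909), the latter at -0.47 in edgeR (adjusted p = 0.103). Rab44, a GTPase of granule release, was at -0.44 (edgeR adjusted p = 0.402).

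**Figure D5:**
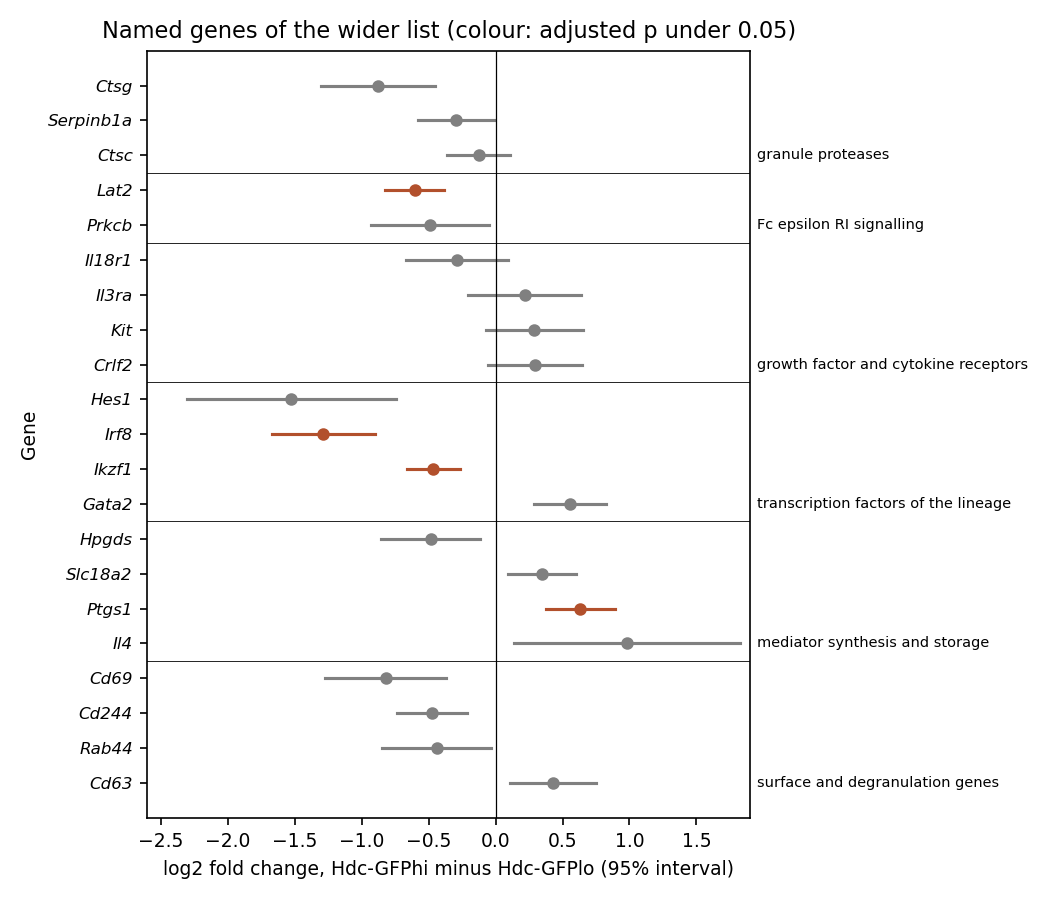
Log2 fold change (Hdc-GFPhi minus Hdc-GFPlo, points) and 95% interval (lines) of genes from the 6 lists, with genes of an edgeR adjusted p under 0.05 in colour. Irf8, Ikzf1 and Lat2 lie below 0 and Ptgs1 above 0, and the named receptor genes all have intervals that include 0.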

How the data were processed

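Read counts per gene symbol for 8 libraries were deposited by the authors as whole numbers, not normalized. The submitters' processing notes list HTSeq 0.6.1, TopHat2 (given as version 2.04), Bowtie2 and bcl2fastq 1.8.4, with build mm9. Settings, annotation, strand and the handling of multiply mapped reads: not given in the sources used here. Per the labels' protocols, RNA was amplified with a SMARTer kit and tagged with Nextera XT, with no molecular identifier named, so amplified copies of a molecule each count. In GENCODE M21 transcripts, the share of words of 50 bases also found in another gene was 5.48% for Mcpt4, 5.38% for Cma1, 2.69% for Cd200r3 and 2.10% for Ms4a2, and 0 for the other 6 genes.

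Genes were filtered by filterByExpr, scaled by TMM and tested with edgeR 4.0.16 quasi-likelihood (robust, no covariate, R 4.3.3), with Benjamini-Hochberg adjustment over all 13300 tested genes. The test was checked on simulated data. Alternatives were other scalings and filters, DESeq2 1.42.0, limma 3.58.1 voom, a replicate block, leaving out each library and, added later, a covariate for replicates 1 and 2 against 3 and 4, each side alone, and 2 libraries left out together. Named genes were the 10 members, up to 4 genes per list with the smallest p, defining markers of other cell types and 3 genes like Cpa3; some of them are not reported here. Fcer1g and the granule protease genes listed at or near 0 were named after their values were seen. Members and lists were chosen with earlier results of these data known. Same-numbered libraries deviated together (r of 0.18 to 0.42 over all tested genes), although Hdc-GFPhi replicate 4 and Hdc-GFPlo replicate 3 also did (0.21). That value was above those of the same-numbered replicates 3 (0.18) and 4 (0.20). The numbers were therefore treated only as a possible pairing of the libraries, which no label gives. The fit with the replicate block is an alternative to the test above, which has none. No label says that replicates were separate animals, so p-values measure the spread between these libraries, which may be technical. Every pair of libraries within a fraction differed beyond counting noise (chi-square per degree of freedom of at least 13.3).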

Additional observations from a re-analysis of the deposited data

Results flagged for a closer look

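In 10 of 64 groups of 4 libraries looked at, 1 library lay far from the other 3, by a gap over the group's range (in CPM) above Dixon's 95% limit. For normally distributed values, chance flags about 1 in 20 groups, but CPM of sparse genes need not be normal. In a group with only 1 library above 0 the value is 1 by construction. The number flagged can therefore not be set against 1 in 20. Hdc-GFPlo replicate 3 stood above its group for Prss34 (0.998, at 62.0 CPM with the next at 0.152), Mcpt8 (0.953), Fcer1a (1) and Cma1 (1, from 1 count). Hdc-GFPhi replicate 3 stood above its group for Tpsb2 (0.913), Mcpt4 (1) and Ikzf1 (0.852). Gzmb was detected in 1 library of each fraction, Hdc-GFPhi replicate 2 and Hdc-GFPlo replicate 4 (1 in both). For Prkcb, Hdc-GFPhi replicate 2 was at 50.4 CPM with the next at 33.6 (0.960).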

How the results depend on the processing

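No member was called under any of the 19 alternatives, each of which tested 2 to 10 of the 10 genes. The log2 fold change of Prss34 stayed positive in the 17 alternatives that tested it, from 0.16 to 8.88. Mcpt8, at -0.32, turned to 0.62 with voom, 0.18 with the replicate block, 1.06 without Hdc-GFPlo replicate 3, 0.63 in replicates 1 and 2 alone and 0.68 with both Hdc-GFPlo replicate 3 and Hdc-GFPhi replicate 4 left out. Its range with 1 library left out was -0.70 to 1.06. Cpa3, at -0.24, turned to 0.15 without Hdc-GFPlo replicate 3 and 0.069 without that pair, and ranged from -0.49 to 0.15 with 1 library left out. Il3ra turned to -0.12 in replicates 3 and 4 alone. The 4 calls of the wider list became 10 with DESeq2, 7 with voom, 7 with the replicate block, 8 with the covariate for replicates 1 and 2 against 3 and 4, 1 in either side alone, and 1 to 5 when 1 library was left out (1 without Hdc-GFPlo replicate 1 or Hdc-GFPhi replicate 3, and 2 without replicate 4 of either fraction). Calls over all genes, 126, became 404 with DESeq2, 278 with voom, 224 with the replicate block, 275 with the covariate, 34 and 19 in replicates 1 and 2 or 3 and 4 alone, and 52 to 146 with 1 library left out (lowest without Hdc-GFPlo replicate 1, then 68 without Hdc-GFPhi replicate 3). The cause of these changes was not tested. The fits on either side alone or with 1 library left out also had fewer libraries.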
